A study of Mus musculus with 203 samples.

Results

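The genes described here are 7 markers that separate the classes of skeletal motor neuron in the spinal cord, followed through single neurons of the mouse nucleus ambiguus (Amb), 53 and 98 of 2 cardiac types and 52 laryngeal. They were chosen by name, as rows of a table of 24029 genes. Chodl, Mmp9, Spp1 and Rbfox3 mark alpha motor neurons, and Esrrg, Esrrb and Wnt7a mark gamma motor neurons. All 7 had reads in each of the neuron types compared.

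Each sample was 1 neuron from a wild-type mouse, C57BL/6 in the labels and C57BL/6NCrl in the study's methods, of postnatal days 2 to 4, labeled by the retrograde tracer cholera toxin B, aspirated from a slice and sequenced by Smart-seq2, a method that amplifies the full-length cDNA of a single cell. The tracer had been placed at the heart or in the cricothyroid, a muscle of the larynx. The deposited annotation divides the cardiac neurons into 53 ACP and 98 ACV neurons and calls the others Larynx. The division into ACP and ACV was made by clustering these same counts, so values that set them apart are given as description. The Larynx type holds exactly the neurons traced from the larynx. The study describes its laryngeal cluster as only largely matching the tracer, so the label may follow the target, and the match is no check on the clustering. The labels name no mouse for any neuron, so each type counts as 1 sample, nothing below was tested between types, and all spreads and intervals are over neurons or reads.

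Alpha motor neurons drive the force-producing fibers of muscle, and gamma motor neurons drive the small fibers inside muscle spindles, which set the sensitivity of stretch sensing. Both are cholinergic and develop from shared progenitors, and in spinal cord some of their marker genes, but not all, become restricted to one class only after birth. Among alpha neurons, Chodl and Mmp9 mark those that drive fast muscle fibers, and Spp1 is strongest in large alpha neurons. Amb holds branchial motor neurons, which drive the muscles of the larynx, pharynx and esophagus, and visceral neurons, which innervate the heart and airways.

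Reads outside Rn45s, a ribosomal transcript, ran from 118492 to 1821510 per laryngeal neuron with a median of 560892, against medians of 1115375 in ACP and 1120512 in ACV neurons. Rn45s took a median of 58.6% of laryngeal counts, 34.3% of ACP counts and 35.8% of ACV counts. Levels are therefore given as counts per 10000 counts outside Rn45s, and they are relative to the other messages of a neuron. Slc18a3, which encodes the vesicular acetylcholine transporter, had a read in every neuron, but its level was between 0.0192 and 0.339 in 6 laryngeal neurons and at least 2.55 in the other 46. Those 6 are included below, and no laryngeal share changed beyond its interval without them. A level of Slc18a3 below 1 was also found in 1 ACP and 10 ACV neurons. Apoe, a glial message, exceeded 1800 counts in 11 ACP and 28 ACV neurons and in no laryngeal neuron. The study's methods give 1800 as the limit above which neurons were removed for glial message. The sources used here do not say why these cardiac neurons remain. They are included below, except where a limit of 900 counts of Apoe is named.

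The members lie on 7 chromosomes of GRCm38, the assembly also called mm10. Chodl is at chr16:78930948-78951733, Mmp9 at chr2:164940780-164955850, Spp1 at chr5:104435118-104441050, Esrrg at chr1:187608791-188214885 and Esrrb at chr12:86361117-86521628, all on the plus strand. Rbfox3, at chr11:118489762-118911597, and Wnt7a, at chr6:91363981-91411363, are on the minus strand. All 7 are protein-coding. Esrrb and Esrrg encode closely related receptors but share no stretch of 75 bases in their transcripts, so reads of that length tell them apart. In Spp1, 8.55% of such stretches are shared with Gm42793, which overlaps its exons on the same strand.

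The 200 bases before the RefSeq start are printed for Chodl and Wnt7a, the alpha and the gamma member whose levels ran most strongly against each other among laryngeal neurons. The coordinates are chr16:78930748-78930947, plus strand, for Chodl and chr6:91411354-91411553, minus strand, for Wnt7a, in GRCm38.p6, and capitals mark TATAA, the core of a TATA box.
Chodl: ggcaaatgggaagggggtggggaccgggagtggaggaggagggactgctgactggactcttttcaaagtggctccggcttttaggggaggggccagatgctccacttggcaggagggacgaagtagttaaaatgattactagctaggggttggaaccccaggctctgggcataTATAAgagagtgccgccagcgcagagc
Wnt7a: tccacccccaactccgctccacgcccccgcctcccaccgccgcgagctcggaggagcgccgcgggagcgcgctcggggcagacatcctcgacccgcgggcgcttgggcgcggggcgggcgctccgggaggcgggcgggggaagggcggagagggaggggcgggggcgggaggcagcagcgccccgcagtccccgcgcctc
The Chodl window holds TATAA on the gene's strand, starting 27 bases before the start, and the Wnt7a window holds none, while 13% of all 32851 windows of this length hold it. Its GC content is 57.5% with 5 CG steps in Chodl and 82% with 31 CG steps in Wnt7a, against medians of 53% and 5 over all windows. RefSeq windows were found for 6 members, 11 windows in all, and not for Mmp9. None of the 11 contains AGGTCA on either strand, the letters of the element bound by nuclear receptors such as Esrrg, which 11.4% of all windows contain.

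Chodl, a membrane lectin, had the highest level per length of the members in laryngeal neurons, with a mean of 0.884 per kb of exon against 0.218 for Rbfox3 and 0.185 for Spp1. It had a read in 43 of 52 laryngeal neurons (82.7%, 95% exact binomial interval 69.7 to 91.8). Levels in laryngeal neurons started at 0, with a median of 1.85 and a highest value of 30.2 in neuron AMB192. The laryngeal mean was 4.85 ± 6.89 (SD over 52 neurons).

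In ACP neurons Chodl ran from 0 through a median of 0.00961 to 11.03, with a read in 29 of 53, and its mean was 0.928 ± 1.99 (SD). In ACV neurons it ran from 0 through a median of 0.322 to 7.56, with a read in 66 of 98, and its mean was 0.853 ± 1.34 (SD). The ranges overlap, but 8 laryngeal neurons lie above every cardiac neuron, and the laryngeal mean was 5.23 times the ACP mean and 5.69 times the ACV mean. The summed reads behind these means were 21188 in laryngeal neurons (95% Poisson interval 20900 to 21480), 5661 in ACP and 11063 in ACV neurons. The reads carry no molecular identifiers, so these intervals and those of shares cover counting error only.

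Rbfox3 encodes the RNA-binding protein NeuN, which is strong in alpha and faint in gamma neurons of the adult cord. It was the most widely detected member, with a read in 45 of 52 laryngeal, 50 of 53 ACP and 78 of 98 ACV neurons. Its laryngeal levels ran from 0 through a median of 1.07 to 4.79, ACP levels from 0 through 0.504 to 2.69, and ACV levels from 0 through 0.250 to 2.15. The means were 1.27, 0.643 and 0.359, so the laryngeal mean was 1.97 times that of ACP and 3.53 times that of ACV. All 45 laryngeal neurons with Rbfox3 had at least 10 reads of it, whereas the other 7 had none.

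Esrrg, a nuclear receptor without a known natural ligand, was the gamma member detected in most neurons. It had a read in 42 of 52 laryngeal neurons (80.8%, interval 67.5 to 90.4), 33 of 53 ACP neurons and 47 of 98 ACV neurons. Its laryngeal levels ran from 0 through a median of 0.271 to 4.18, with a mean of 0.673 ± 0.987 (SD). ACP levels ran from 0 through 0.0144 to 2.20 with a mean of 0.228, and ACV levels from 0 through 0 to 2.77 with a mean of 0.155. Only 4 laryngeal neurons lie above the highest cardiac neuron, so the excess of 2.95 and 4.35 times in the mean is spread over overlapping ranges. Of the 42 laryngeal neurons with a read, 30 had at least 10.

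Wnt7a, a secreted signaling protein, was absent from most neurons and high in a few. It had a read in 14 of 52 laryngeal neurons (26.9%, interval 15.6 to 41.02), 9 of 53 ACP and 12 of 98 ACV neurons. The median was 0 in every type, and the highest level was 5.56 in laryngeal, 0.425 in ACP and 0.879 in ACV neurons. The laryngeal mean of 0.279 was 9.63 times that of ACP and 7.25 times that of ACV, and 38.4% of its sum came from neuron AMB181. Without the highest neuron of each type the laryngeal mean was 0.175, against 0.0213 in ACP and 0.0298 in ACV neurons.

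Esrrb, the close relative of Esrrg, was the member at the lowest level, at 0.0105 per kb in laryngeal neurons. It had a read in 20 of 52 laryngeal neurons (38.5%, interval 25.3 to 52.98), 4 of 53 ACP (interval 2.10 to 18.2) and 7 of 98 ACV neurons (interval 2.92 to 14.2). These intervals cover counting error over neurons and do not compare the types. The shares depended on the reads required. With at least 5 reads the counts were 9, 1 and 4, with a laryngeal interval of 8.23 to 30.3 and cardiac intervals that end at 10.1. With at least 10 reads the counts were 5, 1 and 4. The laryngeal neurons were the shallowest. With neurons thinned to 200000 reads, which left out 3 laryngeal neurons, the shares were 30.6%, 3.77% and 4.08%. The means were 0.0636, 0.0127 and 0.0264, but neuron AMB035 gave 92.5% of the ACP sum and neuron AMB101 gave 63.8% of the ACV sum. Leaving out the highest neuron of each type changed the ratio of laryngeal to ACP neurons from 5.01 to 41.5 and that to ACV neurons from 2.41 to 4.14.

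Mmp9, a secreted protease that marks the motor neurons of fast-fatiguing muscle, was rare in all types. It had a read in 12 of 52 laryngeal, 6 of 53 ACP and 7 of 98 ACV neurons, with medians of 0 and highest levels of 3.35, 1.31 and 1.90. Neuron AMB166, with 61 reads, made 56.2% of the laryngeal sum. Its mean ratio of laryngeal to ACP neurons was 2.04 as scaled here, but 0.866 with Rn45s in the totals and 0.645 after thinning, so no direction is given for Mmp9 between them. The ratio to ACV neurons was 4.85, and 12 without the highest neuron of each type. Thinning also brought the laryngeal share from 23.1% to 12.2%, beside 11.3% in ACP neurons. It left out 3 laryngeal neurons below 200000 reads, among them AMB166 and AMB169, which had Mmp9 reads. Without AMB166 alone the laryngeal mean was 0.0513, against 0.0563 over all ACP neurons. How far depth itself moved these values was not tested.

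Spp1 encodes osteopontin, a secreted phosphoprotein that microglia and bone also make. It had a read in 13 of 52 laryngeal, 9 of 53 ACP and 27 of 98 ACV neurons, with medians of 0 and highest levels of 8.43, 2.02 and 64.5. ACV was the type with the highest mean, at 1.33, against 0.305 in laryngeal and 0.128 in ACP neurons, and ACV neuron AMB138, with 5600 of the 10616 ACV reads, made 49.6% of that sum. In AMB138 the summed level of 10 microglial genes was 53.4, rank 4 of 98, and that of 12 oligodendrocyte genes was 96.8, the highest of 98. Summed microglial levels ran up to 85.5 in ACV, 30.8 in laryngeal and 11.6 in ACP neurons, and the Spearman correlation of Spp1 with them was 0.389 over ACV, 0.217 over laryngeal and 0.122 over ACP neurons. The laryngeal value lies inside the middle 90% of the correlations of Spp1 with 7484 widely detected genes, -0.192 to 0.270. Among neurons with at most 900 counts of Apoe the ratio of laryngeal to ACV Spp1 was 2.50 instead of 0.230, the opposite direction. The laryngeal neuron with most Spp1, AMB184, had the highest vascular and fibroblast sum of the 52, 132.1, against at most 7.84 in any cardiac neuron. AMB157 and AMB198, next in Spp1 at 3.18 and 2.57, had such sums of 0 and 0.0335. Over laryngeal neurons the Spearman correlation of Spp1 with this sum was 0.112. Of the 6 vascular and fibroblast genes detected widely enough in both comparisons, out of 10 listed, Col1a1, Col1a2 and Lum had laryngeal means at least 2 times both cardiac means, as did 6.67% of all genes considered in both. The part of these other cells in the Spp1 values was not tested.

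**Figure D1:**
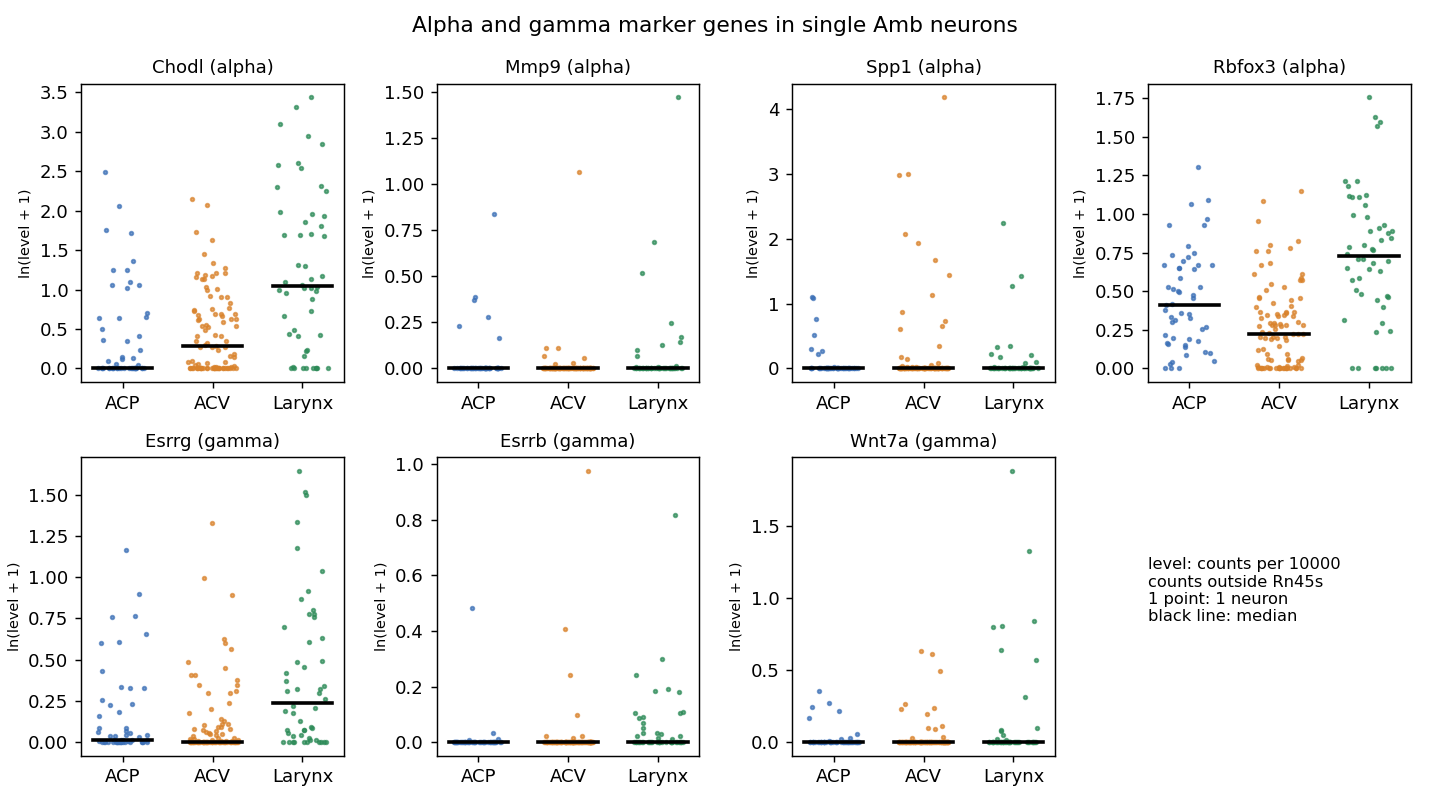
Level of each marker gene in single neurons of each type, as the natural log of counts per 10000 counts outside Rn45s plus 1, with 1 point per neuron and the median as a black line. Every gene has neurons at 0 in every type, and 8 laryngeal neurons exceed every cardiac neuron in Chodl. The Mmp9 ratio of laryngeal to ACP means, 2.04 here, is below 1 with Rn45s in the totals, and the Spp1 ratio to ACV, 0.230, is above 1 among neurons with at most 900 counts of Apoe.

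**Figure D2:**
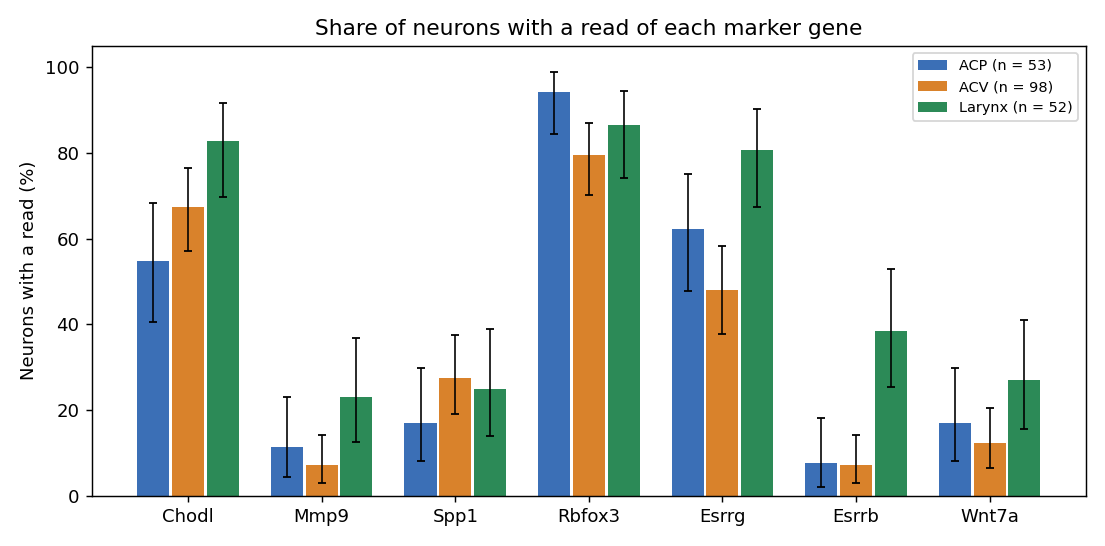
Percent of neurons of each type with at least 1 read of each gene, with 95% exact binomial intervals over neurons. The bars for Chodl, Esrrg and Esrrb are highest in laryngeal neurons, at 82.7%, 80.8% and 38.5%.

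Side by side, 6 of the 7 members had a laryngeal mean at least 2 times the ACP mean, Rbfox3 falling just short at 1.97 and Mmp9 just past at 2.04. Among 13256 genes with a read in at least 10% of either type, 12.5% were at least 2-fold higher in laryngeal neurons and 10.3% at least 2-fold lower. Against ACV neurons 6 members were at least 2-fold higher and Spp1 was lower, where 14% of 13297 genes were higher and 10.4% lower. The median ratio of the 3 gamma members was 5.01 to ACP and 4.35 to ACV, that of the 4 alpha members 2.22 and 4.19, and that of all genes 1.02 in both. The comparisons share the 52 laryngeal neurons. They are also relative to total message, since with Rn45s in the totals the median over all genes was 0.667 to ACP and 0.698 to ACV. On that scale Mmp9, at 0.866 to ACP, was the only member whose direction changed in the laryngeal comparisons, and only 3 members, Chodl, Esrrb and Wnt7a, stayed at least 2 times the ACP mean, with Esrrg at 1.92 and Spp1 at 1.75. Against ACV neurons 5 stayed so, without Mmp9. Without the highest neuron of each type, 4 members were at least 2 times the ACP mean, with Mmp9 at 1.59 and Spp1 at 1.6 below it. Between the cardiac types Mmp9 was at least 2-fold higher and Spp1 at least 2-fold lower in ACP among the 6 members with enough detection, where 9.87% of 13356 genes were higher and 8.63% lower. Both of these directions turned among neurons with at most 900 counts of Apoe, to ratios of 0.565 and 1.13.

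Most laryngeal neurons carried reads of both sets. Of 52, 45 had a read of at least 1 alpha and at least 1 gamma member, 3 had alpha members only, 4 had gamma members only and none lacked all 7. With at least 10 reads required, 26 had both, 21 alpha only and 5 gamma only. For comparison, 39 of 53 ACP and 46 of 98 ACV neurons had a read of both sets, and 12 and 49 had alpha members only. With at least 10 reads, 24 ACP and 29 ACV neurons had both, 25 and 53 alpha only, and 0 and 4 gamma only. Rbfox3, counted in the alpha set, had a read in 50 of 53 ACP neurons.

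Sorted by the level of a single member, the laryngeal neurons had either narrow gaps or gaps with few neurons above them. On the scale of the natural log of the level plus 1, the largest gap between neighbors in Chodl was 10.8% of its range, between levels of 2.70 and 4.35, with 32 neurons below it and 20 above. In Esrrg the largest gap was 10.2% of the range, with 49 neurons below and 3 above. The largest gaps of Mmp9, Esrrb and Wnt7a, 53.4%, 63.6% and 29.5% of their ranges, each set apart 1 highest neuron, and that of Spp1, 41.6%, set apart 3. Rbfox3 had its largest gap, 20% of its range, below its 4 highest neurons.

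The correlations between the sets were weak and mostly negative. Of the 12 pairs of an alpha with a gamma member, 10 had a negative Spearman correlation over the 52 laryngeal neurons, with a median of -0.220. The lowest were Chodl with Wnt7a at -0.352, Rbfox3 with Wnt7a at -0.329 and Chodl with Esrrb at -0.319, and Chodl with Esrrg was at -0.233. The 3 pairs of gamma members lay between 0.172 and 0.273. The 6 pairs of alpha members did not share a sign, with Chodl and Rbfox3 at 0.129 and Mmp9 and Spp1 highest at 0.378. These values are weak and are a description over neurons of shared depth and totals. For scale, the middle 90% of the correlations of Chodl with 7483 widely detected genes ran from -0.264 to 0.363 and those of Wnt7a from -0.262 to 0.218. In ACP neurons 6 of the 12 alpha with gamma pairs were negative, and in ACV neurons 4 of 12.

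The sum of the 4 alpha levels and the sum of the 3 gamma levels had a Spearman correlation of -0.313 over laryngeal, 0.107 over ACP and -0.0294 over ACV neurons. The laryngeal alpha sum ran from 0 through a median of 4.19 to 31 and the gamma sum from 0 through 0.333 to 9.24. The largest gap in the laryngeal alpha sum lay between 0.272 and 0.866, at 11.1% of the range, with 5 neurons below it.

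**Figure D3:**
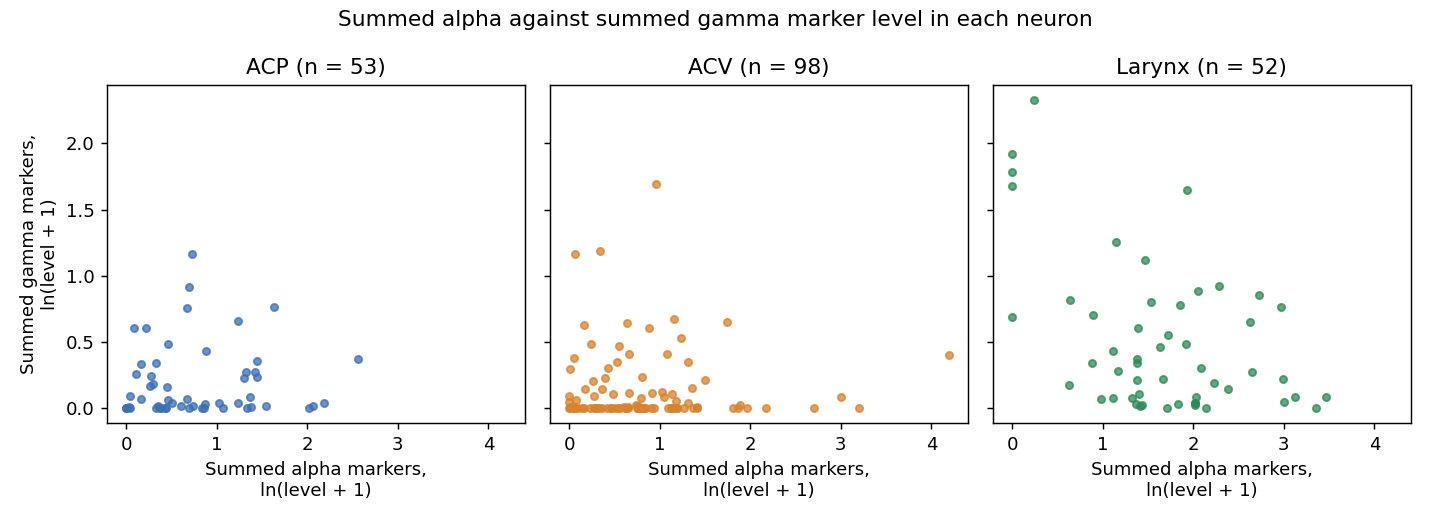
Summed level of the 4 alpha members against that of the 3 gamma members in each neuron, both as the natural log of the level plus 1, for ACP, ACV and laryngeal neurons. In the laryngeal panel 4 neurons at the upper left join an alpha sum of at most 0.272 to a gamma sum of 4.36 to 9.24, and the other neurons form a broad cloud.

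These 5 neurons were singled out after their values were seen, and they are described one by one. AMB181 had the highest gamma sum of the 52, 9.24, made of levels of 3.48 for Esrrg, 5.56 for Wnt7a and 0.198 for Esrrb, beside 11 reads of Rbfox3 and none of Chodl, Mmp9 or Spp1. AMB178 was next at 5.85, with 63 reads of Esrrg, 96 of Wnt7a and 44 of Esrrb and none of any alpha member. AMB175 followed at 4.94, with a level of 3.55 for Esrrg, 56 reads of Wnt7a and 3 of Esrrb, and AMB196 at 4.36, with a level of 2.79 for Esrrg, 74 reads of Wnt7a and 21 of Esrrb, both without an alpha read. AMB174 had 68 reads of Esrrg, 9 of Esrrb and none of Wnt7a or of the alpha members, and its gamma sum of 0.993 ranked 16. So the 4 highest gamma sums belonged to 4 of the 5 neurons with the lowest alpha sums, while the next highest, 4.18 in AMB166, came with an alpha sum of 5.88. That alpha sum came from Mmp9 at 3.35 and Rbfox3 at 2.36, with Chodl at only 0.165 from 3 reads. AMB166 was also shallow, with 181910 reads outside Rn45s.

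Slc18a3 was between 17.5 and 29.5 in all 5. The summed level of 10 motor neuron identity genes, Slc18a3 among them, had a laryngeal median of 49.03. It was below that in AMB178 and AMB174, at 31.2 and 38.9, and above it in AMB196, AMB181 and AMB175, at 57.7, 58.1 and 73.2. Isl1, 1 of the 10, was at 0.0576 in AMB178 and 0.236 in AMB175, and at 1.55 to 4.00 in the others. The 5 neurons had 347204 to 775577 reads outside Rn45s. Their microglial sums were at most 1.37, but AMB196 had the highest oligodendrocyte sum of the 52, 58.7. Uts2, which encodes the peptide urotensin, was present in all 5, at 0.979 to 8.38, and AMB196, AMB175, AMB181 and AMB174 ranked 1, 2, 4 and 5 in it. Rank 3 was AMB166, at 7.31. Calca, which encodes the peptide CGRP, was at 0.425 to 5.30 in the 5, below the laryngeal median of 9.48. The limits for a comparison with cardiac neurons were set from these 5 neurons, so all 5 meet them. An alpha sum below 0.5 was found in 18 of 53 ACP and 30 of 98 ACV neurons. Together with a gamma sum of at least 0.993 it was found in no ACP neuron and in 2 ACV neurons. ACP neurons AMB010 and AMB021 had alpha sums of 0.0900 and 0.239 with gamma sums of 0.827 and 0.835. The sample titles of 4 of the 5 lie within a run of 8 laryngeal neurons, AMB174 to AMB181, in which 5 had no Chodl read. The labels do not say whether title order follows mice, plates or slices, so these cannot be told apart from a difference between cells.

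Altogether 9 laryngeal neurons had no Chodl read. Beside the 5 above, AMB180, AMB188 and AMB189 had Rbfox3 levels of 0.562, 2.03 and 2.03 and so lacked Chodl but not the alpha set. In AMB180 Wnt7a was also present, at 1.24, and the gamma sum of 1.25 exceeded the alpha sum of 0.901. That gamma sum was also above the 0.993 of AMB174. AMB188 was among the laryngeal neurons with a Slc18a3 level below 1, at 0.0376. AMB157 had no Chodl, Rbfox3, Esrrg or Calca and a Spp1 level of 3.18, with an oligodendrocyte sum of 56.8, rank 3 of the 52, and a microglial sum of 15.8. The 2 highest Chodl neurons, AMB192 and AMB177, had 16 and 0 reads of Esrrg and none of Wnt7a or Esrrb. Other neurons high in Chodl did hold gamma reads. AMB173, at 12.6, had 33 reads of Esrrg and 44 of Wnt7a, and AMB167, at 12.3, had 79 of Esrrg and 34 of Esrrb. The 8 laryngeal neurons above every cardiac neuron in Chodl had gamma sums of 0 to 1.34, beside a laryngeal median of 0.333.

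**Figure D4:**
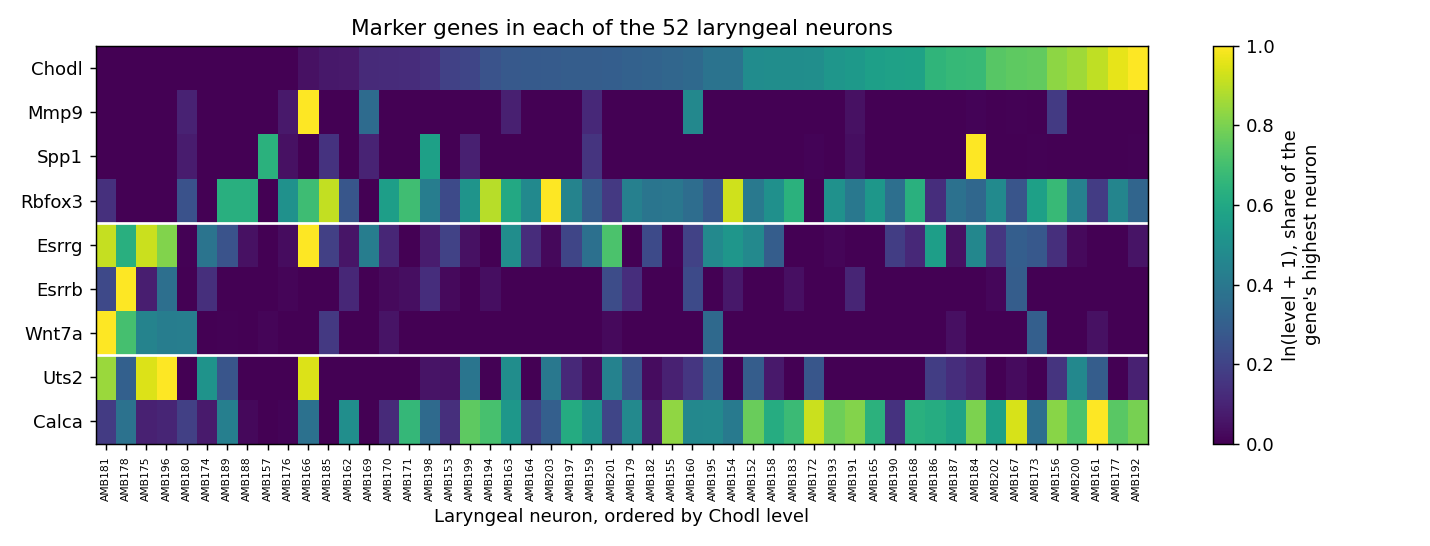
The 7 members, Uts2 and Calca in each of the 52 laryngeal neurons, ordered from left to right by Chodl level, each gene as the natural log of the level plus 1 over that of its own highest neuron. Most bright cells of Wnt7a lie among the neurons without Chodl at the left, Esrrg extends across the order, and Calca brightens toward the right.

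The genes whose levels ran most like Chodl over the 52 laryngeal neurons, of 7483 others with a read in at least 26 of them, were Layn at a Spearman correlation of 0.778, Calcb at 0.732 and Calca at 0.707. Layn, like Chodl, encodes a membrane protein of the C-type lectin group, and Calcb and Calca encode the CGRP peptides. Over ACP neurons Chodl and Calca had a correlation of 0.556, and over ACV neurons 0.0096. In ACP neuron AMB052, the highest for Chodl at 11.03, Calca was also at its ACP highest, 7.44. The genes most like Esrrg were Prss12 at 0.495, Tpm1 at 0.489 and Pmp22 at 0.484, with Uts2 at rank 10 and 0.463, and Calca was near the other end at -0.337. Those most like Rbfox3 were Zfp318 at 0.570, Asxl1 at 0.558 and Cxx1a at 0.543.

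**Figure D5:**
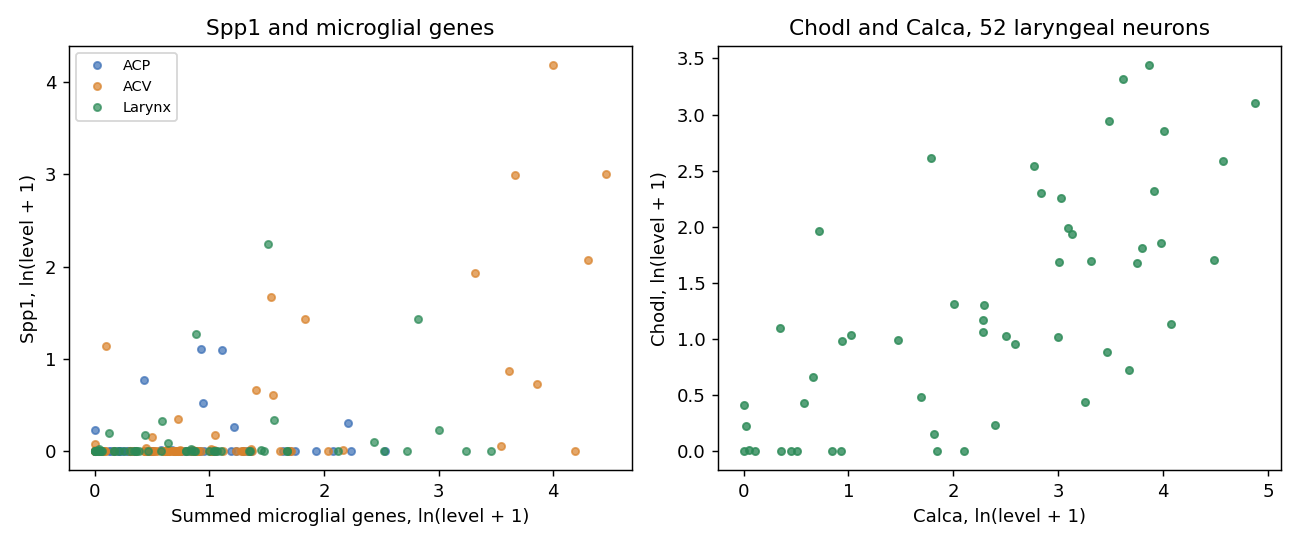
Left, Spp1 against the summed level of 10 microglial genes in every neuron, colored by type, and right, Chodl against Calca in the 52 laryngeal neurons, all as the natural log of the level plus 1. The highest Spp1 point is an ACV neuron with a microglial sum of 53.4, and the Spearman correlation of Chodl with Calca is 0.707.

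Other genes known from alpha and from fast or slow motor neurons did not differ from the cardiac types as a block. Of 6, 5 were detected widely enough, and 2 were at least 2-fold higher in laryngeal neurons than in both cardiac types. Over all genes considered in both comparisons, 6.67% were. The 2 were Calca, with a mean of 20.95 against 0.528 in ACP and 0.228 in ACV neurons, and Dlk1, a membrane protein of fast motor neurons, with 0.223 against 0.0112 and 0.00874. Sv2a, Kcnn3 and Prkcd lay between 0.687 and 1.31 times the cardiac means.

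Of 7 other gamma genes, 3 were at least 2-fold higher in laryngeal neurons than in both cardiac types and 1 was lower in both. Gfra1, a receptor subunit for the growth factor GDNF, had a read in 50 of 52 laryngeal neurons, and its mean was 7.70 against 0.189 in ACP and 0.713 in ACV neurons. Plch1, a phospholipase, was at 0.707 against 0.152 and 0.0444, and Stxbp6 at 0.117 against 0.0324 and 0.0514. Pard3b was lower, at 0.0171 against 0.136 and 0.0437. Htr1d, a serotonin receptor, was at 0.0744 in laryngeal neurons, below ACP at 0.152 and above ACV at 0.0103, and 64.6% of the laryngeal sum came from 1 neuron. Over all genes considered in both comparisons, 6.67% were higher in both and 4.88% lower in both. From these same neurons, the study already lists Gfra1, Plch1, Calca, Dlk1, Timp3 and the member Esrrg as enriched in laryngeal over cardiac neurons. Counts of members and of listed genes that include them partly restate that result.

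Among 21 inhibitors, receptors, partners and relatives of the members, 20 were detected widely enough beside ACP and 19 beside ACV neurons. Of these, 5 were at least 2-fold higher in laryngeal neurons than in both cardiac types, and none was lower in both. The shares over all genes considered in both comparisons were 6.67% and 4.88%. Timp3, an inhibitor of metalloproteases such as Mmp9, had a mean of 6.63 against 0.354 in ACP and 0.471 in ACV neurons, and its highest neuron, at 66.9, was AMB181. Itgav, an integrin subunit that binds osteopontin, was at 0.0653 against 0.0158 and 0.0215, with 47.2% of the laryngeal sum in 1 neuron. Esrra, a relative of Esrrg and Esrrb, was at 0.124 against 0.0299 and 0.0560, and Ppargc1b, a coactivator of these receptors, at 0.275 against 0.0935 and 0.0998. Layn completed the group at 1.28 against 0.533 and 0.329. Of the relatives of Rbfox3 and Wnt7a, Rbfox1 was 2.86 times the ACP mean and 1.62 times the ACV mean, and Rbfox2 and Wnt7b were within 2-fold of both.

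All 3 gamma members had a read in 6 laryngeal, 2 ACP and 3 ACV neurons. Each had at least 10 reads in 2 laryngeal neurons, in no ACP neuron and in 2 ACV neurons, AMB065 and AMB151. ACV neuron AMB101 had the highest gamma sum among cardiac neurons, 4.43, from only 2 of the gamma members. It had the highest ACV level of Esrrg, 2.77 from 255 reads, and of Esrrb, 1.65, with no read of Wnt7a or Chodl and a Rbfox3 level of 1.60. It was also the highest ACV neuron for Gfra1 at 3.43, Timp3 at 6.33 and Stxbp6 at 2.15. Its microglial sum was 0.359 and its Slc18a3 level 8.68. Over all 98 ACV neurons the 3 pairs of gamma members had correlations of 0.245 to 0.363.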

How the data were processed

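Neurons of Amb were aspirated singly and sequenced by Smart-seq2. The authors trimmed reads with Skewer and aligned them to mm10 with STAR 2.6.1d. The program and annotation that made the counts are not given in the sources used here. The authors deposited raw counts of 24029 genes in 203 neurons, with 542162 to 3292763 counts per neuron, and an annotation of target and type. A deposited table named CPM was not used. The labels give 1 group, so types were taken from the annotation.

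Counts were divided by the total outside Rn45s and scaled to 10000. Gene positions came from GENCODE vM21, and promoters from RefSeq. Ratios of means were formed for genes with a read in at least 10% of either type and counted past 2-fold, and the ratio function was tested on simulated data. Shares have 95% exact binomial and summed reads 95% exact Poisson intervals. No 2 neurons had identical counts. Listed genes are named when past 2-fold in both laryngeal comparisons or when they describe a list, as are the 3 genes most alike to each widely detected member. Alternatives were totals with Rn45s, edgeR 4.0.16 TMM sizes, DESeq2 1.42.0 size factors, summed reads, thinning, read minimums and subsets of neurons. Python 3.11.15 and R 4.3.3 were used. The members and lists were chosen with earlier results of these data known. 1 gene of these lists is not reported here.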

Additional observations from a re-analysis of the deposited data

How the results depend on the processing

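No test was run between types, since the labels name no mouse and each type is 1 sample. No paired analysis was possible because the labels put all neurons in 1 group. Types taken from the injected target gave the same laryngeal neurons, which is no independent check, since the Larynx label may follow the target. The cause of each change below was not tested unless the setting itself gives it. TMM sizes and DESeq2 size factors moved no value beyond 1.5 times or an interval. The count of members at least 2 times the ACP mean, 6, was 5 with TMM sizes and 5 after thinning.

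The laryngeal to ACP ratio of Mmp9, 2.04, was 0.866 with Rn45s in the totals, 0.645 after thinning to 200000 reads, which left out 3 laryngeal neurons, 1.31 from summed reads and 4.6 with at most 900 counts of Apoe. AMB166, the highest laryngeal neuron for Mmp9, was among those left out by thinning. With Rn45s in the totals the laryngeal to ACP ratio was 1.31 for Rbfox3, 1.92 for Esrrg and 3.32 for Esrrb. With at most 900 counts of Apoe, which kept 26 ACP, 44 ACV and 38 laryngeal neurons, it was 5.49 for Esrrg, 264 for Esrrb and 303 for Wnt7a. The latter rest on 1 and 4 ACP reads, the first with a counting interval of 47.4 to 10400. Esrrb was at 3.24 with at least 1000000 counts and at 41.5 without the highest neuron of either type, an alternative added after seeing the data.

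The laryngeal to ACV ratio of Mmp9, 4.85, was 1.68 with Rn45s in the totals, 1.32 after thinning, 2.6 with at most 900 counts of Apoe, 29.6 with at least 1000000 counts, 12 without the highest neurons and 27 among neurons with a Slc18a3 level of at least 1, also added after seeing the data. That of Spp1, 0.230, was 0.355 from summed reads and 2.50 with at most 900 counts of Apoe. The latter setting gave 5.80 for Rbfox3, 6.44 for Esrrb and 19.6 for Wnt7a. Esrrb was at 1.58 with at least 1000000 counts and at 4.14 without the highest neurons. The ACP to ACV ratios of Mmp9 and Spp1 turned to 0.565 and 1.13 with at most 900 counts of Apoe.

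Laryngeal shares depend on the reads required. At 5 reads they were 65.4% for Esrrg and 17.3% for Esrrb, and at 10 reads 9.62% for Mmp9, 13.5% for Spp1, 57.7% for Esrrg, 9.62% for Esrrb and 15.4% for Wnt7a. Thinning gave 12.2% for Mmp9. Neurons with both sets, 86.5%, were 63.5% at 5 and 50% at 10 reads, and those with alpha members only, 5.77%, were 28.8% at 5 reads, 40.4% at 10 and 16.3% after thinning.

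Genes at least 2-fold higher in laryngeal than ACP neurons, 1653, numbered 695 with Rn45s in the totals, 4094 without a detection filter, 1016 with one of 25% and 2945 at 1.5-fold, and those lower, 1369, numbered 3399, 3429, 817 and 2590. Against ACV, 1858 higher became 955, 4096 without a filter and 3267 at 1.5-fold, and 1382 lower became 3281, 3897, 764 with the filter of 25% and 2685.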
